A study of Mus musculus with 2 samples.

Results

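The barcodes described here held *Ccr7* transcripts together with transcripts of MHC class II genes, the combination by which mature migratory dendritic cells are commonly recognised. A barcode was a member when it had at least 3 UMIs (molecules counted once each) of *Ccr7* and at least 10 UMIs of *H2-Aa*, *H2-Ab1* and *H2-Eb1* together. Limits on quality asked for 3000 UMIs and 500 genes or more per barcode, with mitochondrial UMIs no higher than 10%. In all 163 barcodes met the rule, of 13188 that passed those limits and 18770 deposited. The library labelled CD40 KO held 93 members and the WT library held 70. Both libraries were made by droplet single-cell RNA sequencing of mouse hearts on day 3 after myocardial infarction, from CD45+ CD11b+ CD64+ cells sorted as mononuclear macrophages out of the infarct and its border zone. The sources used here do not give the CD40 allele, the strain, the age or how many mice were pooled. The members were chosen by the measured UMIs of *Ccr7* and the class II genes, so the levels of those genes are descriptions.

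Dendritic cells take up antigen in tissues, mature and then leave for the draining lymph node. CCR7 is the chemokine receptor that guides them there, and its ligands are made by lymphatic vessels and lymph node stroma. Mature dendritic cells of the heart and other organs also switch on the actin bundling protein fascin, chemokines that attract T cells, costimulatory ligands and genes of the NF-κB pathway, while they lower genes of antigen uptake. CD40 is a receptor of the TNF receptor family on dendritic cells, and T cells that carry its ligand license dendritic cells through it. CD64, a receptor for IgG, is usually taken as a macrophage marker, so the sort was not aimed at dendritic cells.

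There was 1 library per group, so no comparison between the libraries has a replicate check and none was tested. Intervals in brackets are exact 95% intervals that cover counting error only. The library labelled CD40 KO held 90057108 UMIs in 8146 barcodes and the WT library 139343516 UMIs in 10624 barcodes. Of these, 5757 and 7431 barcodes passed the limits, with medians of 9224 and 13627 UMIs. The members lay closer to each other, at medians of 17125 and 17910.5 UMIs. The libraries shared 23 barcode sequences, and 0 of the members carried a shared one. Levels below are UMIs summed over the barcodes of a population in 1 library and divided by all UMIs of that population, on the usual CPM scale.

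The name mature migratory dendritic cell was borne out for only part of the members. Apart from *Ccr7*, 7 genes were taken as markers of that state: *Ccl22*, *Fscn1*, *Tbc1d4*, *Cacnb3*, *Socs2*, *Il4i1* and *Relb*. At least 1 UMI of at least 5 of the 7 was present in 24 of 93 members (25.8%, 17.3 to 35.9) of the library labelled CD40 KO and in 37 of 70 (52.9%, 40.6 to 64.9) of WT. These barcodes are called marker-rich and the other 69 and 33 marker-poor, a line that was drawn after the values had been seen. It cuts a range: 9 and 7 members had 4 markers, just under the line, and 1 and 11 had 5, just on it. All 7 markers were present in 11 members labelled CD40 KO and 9 WT members. Marker-rich members had median depths of 16752 and 15928 UMIs and marker-poor members 18216 and 20950. When each member was thinned to 3000 UMIs, 10.8% of members labelled CD40 KO and 18.6% of WT members still had at least 5 markers.

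*Fscn1*, which encodes fascin and is 1 of the 7 markers, shows the division barcode by barcode. It had at least 1 UMI in 21 of 93 members labelled CD40 KO and in 31 of 70 WT members. Marker-rich members held 0 to 30 UMIs of *Fscn1* per barcode with a median of 8 in the library labelled CD40 KO, and 0 to 32 with a median of 6 in WT. Among marker-poor members 1 of 69 labelled CD40 KO and 0 of 33 WT members had a UMI of it. The WT count of 0 allows a share of up to 9.09% of marker-poor barcodes with a UMI.

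**Figure D1:**
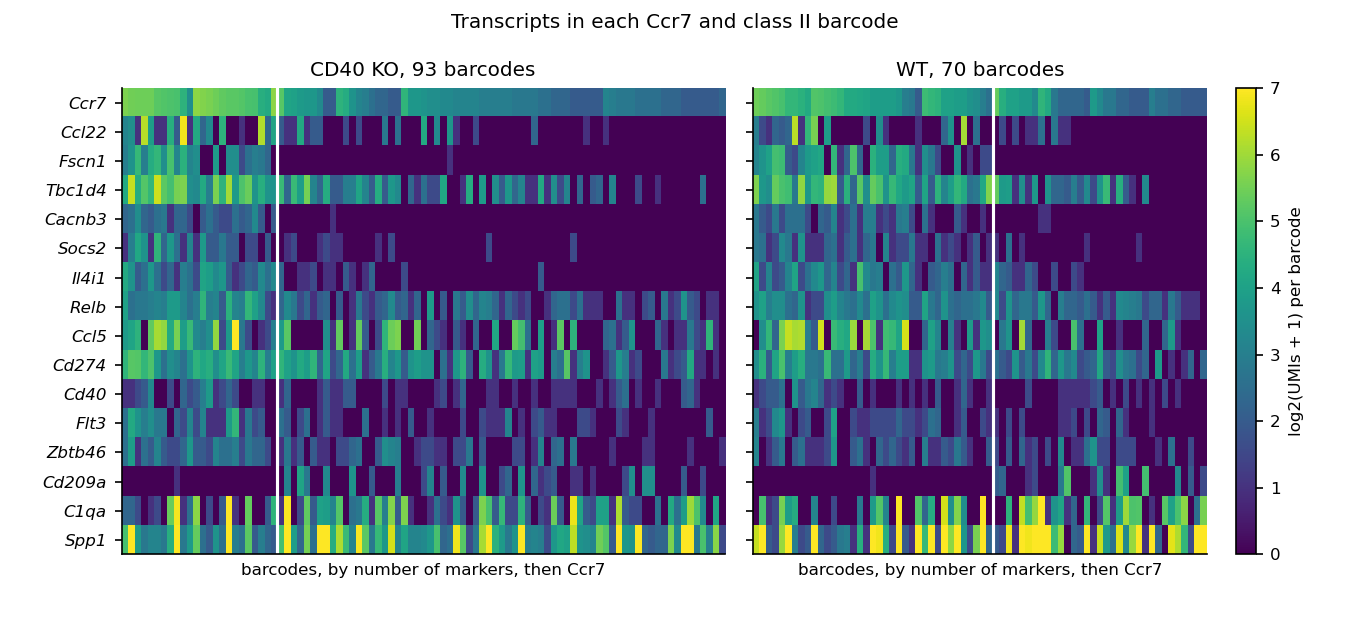
Each column is 1 member and each row 1 gene, coloured by log2(UMIs + 1) in that barcode, with the library labelled CD40 KO on the left and WT on the right. The white line divides the 24 and 37 marker-rich members, left of it, from the 69 and 33 marker-poor members. *Fscn1* and *Cacnb3* are nearly confined to the left of the line, while *Cd209a* lies right of it and *C1qa* and *Spp1* lie on both sides.

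The amount of *Ccr7* (ENSMUSG00000037944, GRCm38 chromosome 11, 99144196 to 99155077, minus strand) ran together with the other markers. Members held 3 to 55 *Ccr7* UMIs with a median of 8 in the library labelled CD40 KO, and 3 to 43 with a median of 13.5 in WT. Of members with at least 20 *Ccr7* UMIs, 22 of 25 labelled CD40 KO and 16 of 19 in WT were marker-rich. Of those with 3 or 4, 0 of 24 labelled CD40 KO and 1 of 17 in WT were. Just inside the limit, at 3 UMIs, lay 15 and 9 barcodes with medians of 2 markers each. Just outside, at 2 UMIs, lay 35 barcodes with the CD40 KO label and a median of 1 marker and 25 WT barcodes with a median of 2, of which 0 and 4 had at least 5 markers. In the range from 10 to 19 UMIs the libraries stood apart, with 2 of 14 and 16 of 22 marker-rich.

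**Figure D2:**
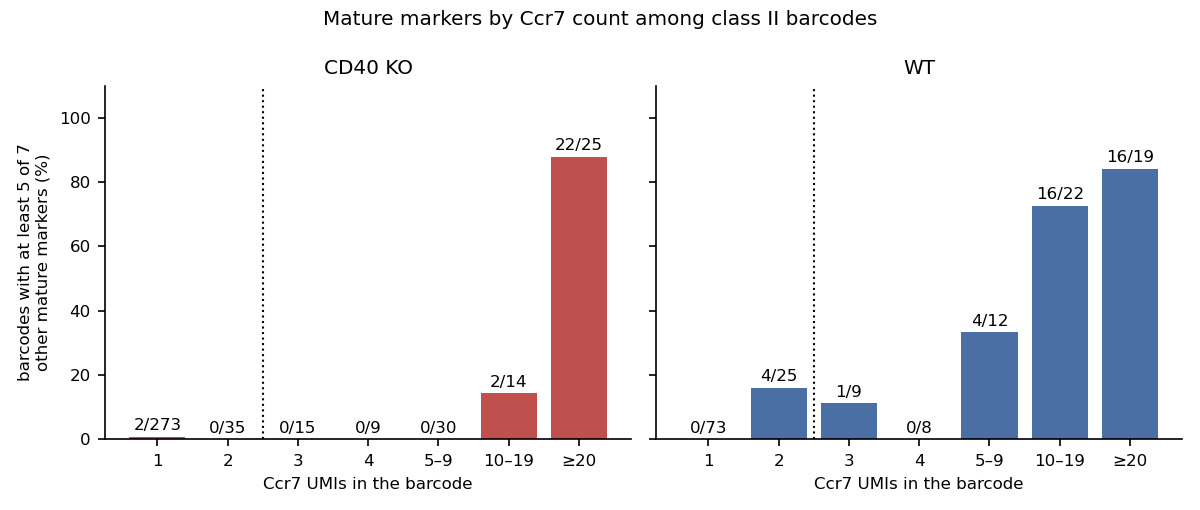
Share of class II barcodes with at least 5 of the 7 other mature markers (vertical axis, percent) by *Ccr7* UMIs in the barcode (horizontal axis), for the library labelled CD40 KO on the left and WT on the right. Labels give marker-rich over all barcodes in the bin, and the dotted line marks the limit of 3 UMIs. The share is highest at 20 and more UMIs in both libraries, 22 of 25 and 16 of 19.

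Members made up 1.62% (1.31 to 1.98) of the barcodes that passed the limits in the library labelled CD40 KO and 0.942% (0.735 to 1.19) in WT. Marker-poor members were apart in the same direction, at 1.199% (0.934 to 1.51) and 0.444% (0.306 to 0.623). Marker-rich members were 0.417% (0.267 to 0.620) and 0.498% (0.351 to 0.686), with intervals that overlap. Among barcodes with at least 10 class II UMIs the members' shares were also close, 3.11% (2.52 to 3.80) and 2.95% (2.31 to 3.71). *Ccr7* at only 1 or 2 UMIs was found in 10.3% of the class II barcodes with the CD40 KO label and 4.13% of those in WT. The CD64 gate and the depth of the libraries can both set such shares.

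For comparison, 3 other populations were taken under the same depth limits, each with at least 10 class II UMIs and no *Ccr7*. Barcodes with at least 3 UMIs of *Cd209a*, a lectin of one dendritic lineage, numbered 39 in the library labelled CD40 KO and 89 in WT and are called *Cd209a* barcodes. Those with at least 3 UMIs of *Xcr1* and *Clec9a*, genes of the other lineage, numbered 7 and 6. Barcodes with at least 10 UMIs of the complement genes *C1qa*, *C1qb* and *C1qc* and neither of those dendritic signs numbered 2349 and 1791 and are called class II macrophages. These were unlike between the libraries, with median depths of 7096 and 20432 UMIs and medians of 18 and 50 class II UMIs. This limits every comparison of their levels between the libraries. *Cd209a* barcodes had median depths of 23239 and 21062 UMIs and medians of 14 and 53 UMIs of the complement genes. Members had medians of 9 and 22 such UMIs, so both held complement transcripts and were unlike between the libraries. No member had 3 UMIs of *Xcr1* and *Clec9a*, where the 0 counts allow shares of up to 3.23% and 4.29%. *Cd209a* at 3 or more UMIs was present in 19 of 69 and 10 of 33 marker-poor members and in 0 of 24 and 0 of 37 marker-rich members.

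Over the whole membership few genes stood above the *Cd209a* barcodes. Among 3424 genes with a mean level of 50 CPM or more, called measured here, 37 were at least 2-fold higher in both libraries (1.08%) and 1, *Cd209a* itself, at least 2-fold lower (0.0292%). Behind *Ccr7*, *Fscn1* and *Ccl22* came *Mreg*, which encodes melanoregulin, which in the library labelled CD40 KO had 103 CPM in members and 2.88 CPM in *Cd209a* barcodes, and in WT 234 and 12.4 CPM. *Tbc1d4*, which encodes a regulator of vesicle traffic, in the same order had 476 and 106 CPM with the CD40 KO label and 671 and 93.04 CPM in WT. *Itga4*, an integrin chain, stood at 277 and 72.1 CPM, and at 316 and 67.4 CPM. The list also held *Il4i1*, *Rras2*, *Tbc1d8*, *Tmtc2*, *Cblb*, *Birc2*, *Rabgap1l*, *Zbtb46* and *H2-Q7*. Against class II macrophages 122 of 3398 genes were at least 2-fold higher in both libraries (3.59%) and 3 lower (0.0883%).

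The 2 kinds of member differed in how far they stood from the *Cd209a* barcodes. Marker-rich members had 132 genes at least 2-fold higher in both libraries (3.84% of 3440) and 23 lower (0.669%). Marker-poor members had 6 higher (0.176% of 3401) and 0 lower, and the 6 were *Ccr7*, *Tmtc2*, *Rras2*, *Tbc1d4*, *Itga4* and *Mmd*. Set against each other, marker-rich members had 85 genes at least 2-fold higher than marker-poor members in both libraries (2.48% of 3422) and 12 lower (0.351%). The 7 markers chose the marker-rich members and are in these counts by choice. Genes outside the 7 included *Strip2* with, under the CD40 KO label, 174 CPM in marker-rich and 10.9 CPM in marker-poor members, and 124 and 16.5 CPM in WT. *Adora2a*, an adenosine receptor gene, stood at 117 and 18.99 CPM, and at 102 and 11.0 CPM in WT. *Tmem123*, a membrane protein gene, stood at 654 and 144 CPM, and at 532 and 115 CPM in WT. The members that met the rule with few of the markers lay close to the *Cd209a* barcodes on this measure when all were summed. Among members with fewer than 10 C1q UMIs the counts were larger: 199 genes higher (6.13%) and 150 lower (4.62%) in marker-rich than in marker-poor members, and 61 higher (1.81%) and 110 lower (3.27%) in marker-poor members than in *Cd209a* barcodes, C1q genes themselves among the lower. The last comparison limited C1q in the members only, so the choice itself sets part of its lower genes. The C1q low sums were small, at 228858 and 218258 UMIs in marker-rich and 521464 and 147324 UMIs in marker-poor members. The 147324 UMIs came from 11 WT barcodes. How far counting error raised these counts was not tested. Summed levels weigh deep barcodes most. Barcodes with at least 10 C1q UMIs held 444157 of 673015 marker-rich UMIs labelled CD40 KO and 582452 of 800710 in WT. They held 1216689 of 1738153 and 581517 of 728841 marker-poor UMIs. The list of *Ccr7* and the 7 markers summed to 4248 and 3593 CPM in marker-rich members. In marker-rich members with fewer than 10 C1q UMIs it summed to 7939 and 6749 CPM.

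**Figure D3:**
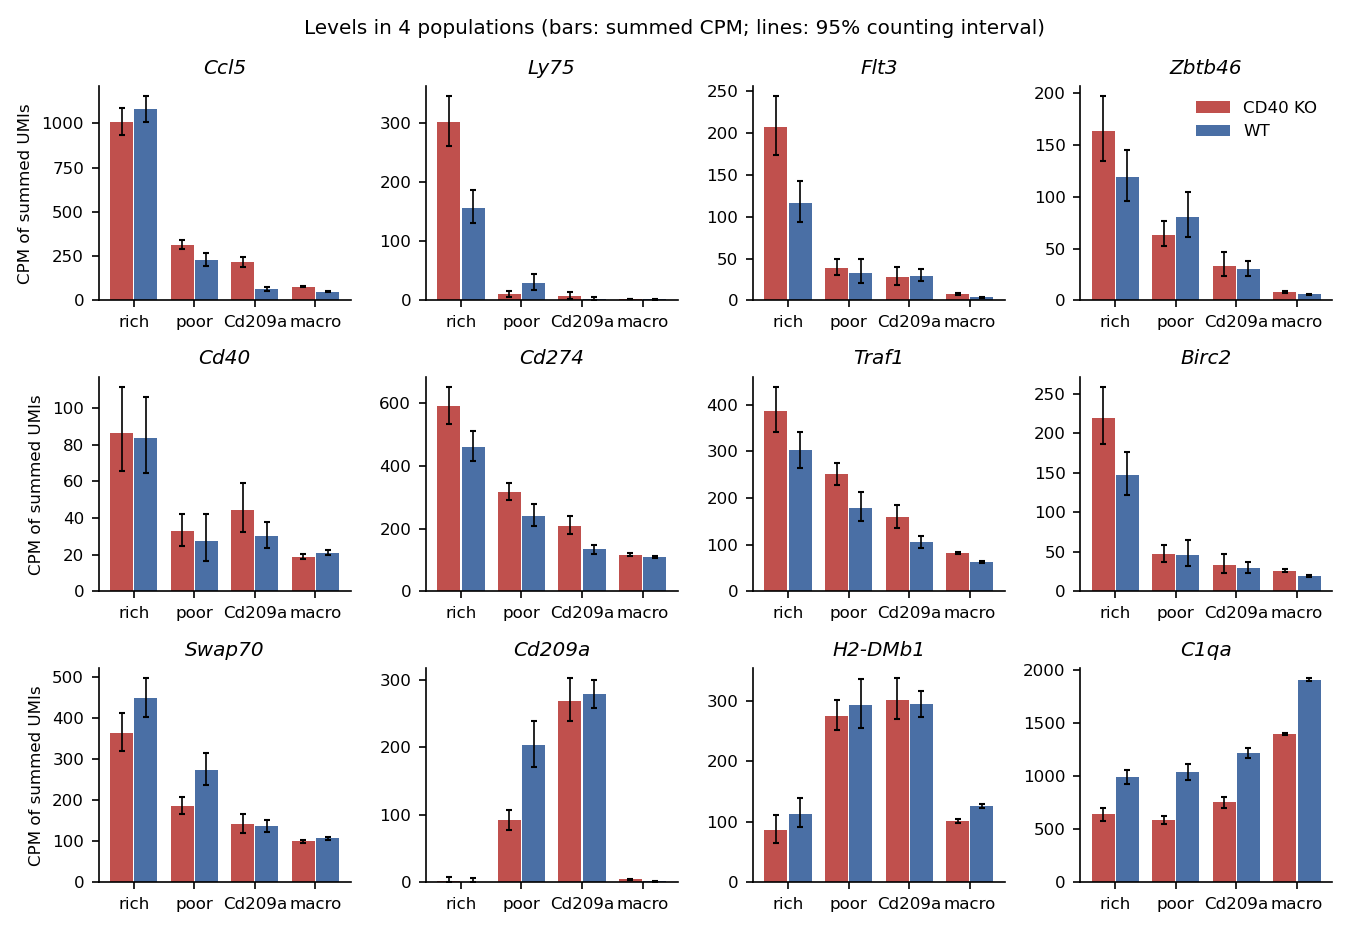
Summed CPM (vertical axes, linear from 0) of 12 genes in marker-rich members, marker-poor members, *Cd209a* barcodes and class II macrophages, with the library labelled CD40 KO in red, left of WT in blue; lines are 95% counting intervals. *Ccl5*, *Ly75*, *Flt3* and *Birc2* are highest in marker-rich members of both libraries, *Cd209a* is near 0 there, and *C1qa* is highest in macrophages.

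Among genes of migration and the cytoskeleton, 7 of 17 measured list members were at least 2-fold higher in marker-rich members than in *Cd209a* barcodes in both libraries and 1 lower, against 3.84% and 0.669% of all genes. Of the 7, *Ccr7* chose the members and *Fscn1*, *Tbc1d4* and *Cacnb3* chose the marker-rich ones. The other 3 were *Marcks*, *Marcksl1* and *Swap70*. *Marcks*, which encodes an actin and membrane binding protein, stood at 920 CPM (849 to 995) in marker-rich members labelled CD40 KO and 864 CPM (801 to 931) in WT. Its *Cd209a* barcodes had 336 and 351 CPM. *Swap70*, whose product organises actin in migrating dendritic cells, had 364 and 447 CPM in marker-rich members, and 142 and 136 CPM in *Cd209a* barcodes. *Itgb7*, an integrin chain used for gut homing, was the lower one, at 22.3 and 38.7 CPM against 103 and 98.3 CPM. Without the 4 choosing genes 3 of 13 were higher and 1 lower, and the list's median log2 ratio was 0.37 in the library labelled CD40 KO and 0.43 in WT, beside −0.10 and −0.07 for all measured genes.

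Chemokine genes divided. *Ccl22*, *Ccl17* and *Ccl5*, whose products attract T cells, were 3 of 11 measured that passed 2-fold over *Cd209a* barcodes in both libraries, beside 3.84% of all genes. *Ccl22* was 1 of the 7 markers that chose the class, and without it the count was 2 of 10. *Ccl5* had 0 to 244 UMIs per marker-rich barcode with a median of 13 in the library labelled CD40 KO, and 0 to 95 with a median of 12 in WT. In sum that was 1006 CPM (932 to 1085) and 1079 CPM (1008 to 1154). Marker-poor members had 314 and 230.5 CPM and *Cd209a* barcodes 214 and 65.0 CPM, so the order of the populations was the same in both libraries. *Ccl22* was spread unevenly: the highest single barcode held 23.6% of the members' *Ccl22* UMIs in the library labelled CD40 KO and 25.6% in WT. For *Ccl17* the highest barcode held 47.0% and 45.9%. *Ccl19*, which encodes a ligand of CCR7 itself, had 0 UMIs in the members of both libraries. Against class II macrophages, a different comparison, the inflammatory chemokines *Ccl2* and *Ccl7*, which attract monocytes, were lower in marker-rich members. For *Ccl2* the levels were 479.9 and 437 CPM in marker-rich members and 1278 and 1159 CPM in class II macrophages.

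Of costimulation genes 0 of 6 measured were 2-fold higher in marker-rich members than in *Cd209a* barcodes in both libraries, beside 3.84% of all genes, a share at which a list of this size would hold few or none. *Cd86*, a ligand of CD28, stood at 569 and 449.6 CPM in marker-rich members, 596 and 575 CPM in marker-poor members and 515 and 410 CPM in *Cd209a* barcodes. *Cd83*, a marker of mature dendritic cells, stood at 391 and 408 CPM, 349 and 318 CPM, and 271 and 212 CPM. Below the measured level, *Tnfrsf9*, a receptor of the TNF receptor family, stood at 108 and 46.2 CPM in marker-rich members and at 7.48 and 4.12 CPM in marker-poor members. *Cd274*, which encodes the checkpoint ligand PD-L1, was among the 3 of 7 measured checkpoint and regulatory genes past 2-fold, with *Il4i1* and *Socs2*, which chose the class; without these it was 1 of 5, beside 3.84% of all genes. It had 589.9 and 461 CPM in marker-rich members, 318 and 241.5 CPM in marker-poor members and 210 and 134 CPM in *Cd209a* barcodes. *Ido1*, which encodes a tryptophan degrading enzyme of some tolerogenic dendritic cells, had 0 UMIs in the members of both libraries.

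*Cd40* (ENSMUSG00000017652, GRCm38 chromosome 2, 165055627 to 165072948, plus strand), the gene named by the KO label, was present in both libraries. Members held 0 to 13 UMIs with a median of 1 in the library labelled CD40 KO, and 0 to 11 with a median of 1 in WT. It was detected in 49 of 93 members (52.7%) and in 37 of 70 (52.9%), and after thinning in 19.4% and 15.7%. Neutrophil-like barcodes (at least 3 UMIs of *Csf3r* and 10 of *S100a8* and *S100a9*), which should hold little of it, had a UMI in 0 of 21 and 1 of 66 at medians of 9389 and 6282 UMIs. The summed level was 47.7 CPM (39.4 to 57.3) in members labelled CD40 KO and 56.9 CPM (45.6 to 70.2) in WT, a log2 ratio of −0.25 (−0.67 to 0.16). In marker-rich members it was 86.2 CPM (65.4 to 111) and 83.7 CPM (64.8 to 106), and in marker-poor members 32.8 and 27.4 CPM. *Cd209a* barcodes had 44.2 and 30.1 CPM and class II macrophages 18.9 and 21.2 CPM. In both libraries marker-rich members had the highest level of the 4 populations, and the interval of the ratio between libraries spans 0 in them, at 0.04 (−0.49 to 0.57). Over marker-poor members the marker-rich ones were higher by 1.39 (0.84 to 1.95) and 1.61 (0.87 to 2.41) on the log2 scale. Only tags at transcripts' 3′ ends are counted by this assay, so where the allele keeps that end these counts check nothing about the knockout.

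CD40 and NF-κB genes, the receptor's adaptors and the transcription factors they release, had 5 of 19 measured members past 2-fold over *Cd209a* barcodes and 0 lower, beside 3.84% and 0.669% of all genes. They were *Traf1* and *Traf6*, adaptors of the TNF receptor family, *Birc2*, an inhibitor of apoptosis that acts with them, *Map3k14*, the kinase NIK of the noncanonical pathway, and *Relb*, a partner of the NF-κB subunit p52 and 1 of the 7 markers. Without *Relb*, which helped choose the class, 4 of 18 were higher and 0 lower. *Traf1* stood at 388 CPM (342 to 438) in marker-rich members labelled CD40 KO and 302 CPM (265 to 343) in WT. Marker-poor members had 251 and 179.7 CPM, *Cd209a* barcodes 160 and 105.5 CPM, and class II macrophages 82.3 and 62.8 CPM, the same order in both libraries. *Birc2* stood at 219.9 and 147 CPM in marker-rich members, and at 47.2 and 46.6 CPM in marker-poor members. *Rel* stood at 1204 and 1097 CPM in marker-rich members, 881 and 932 CPM in marker-poor members and 744 and 548 CPM in *Cd209a* barcodes. *Nfkb2*, which encodes the precursor of p52, lay within 2-fold, at 90.6 and 68.7 CPM against 51.9 and 44.1 CPM in *Cd209a* barcodes. *Nfkbia*, an inhibitor of NF-κB and an early target of it, did not follow this order, at 1630.0 and 2156 CPM in marker-rich members and 1287 and 2394 CPM in *Cd209a* barcodes.

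Since the *Rel* and *Relb* transcripts were high in these cells, the promoters of 4 lists (migration, chemokines, costimulation, CD40 and NF-κB) were searched for the κB motif on either strand, in the 250 bases before the RefSeq start (GRCm38.p6). Of 67 listed genes 47 matched a promoter and 11 of these held a motif (23.4%), beside 743 of all 27025 genes with a promoter (2.75%). By list the counts were 1 of 16, 2 of 8, 1 of 5 and 7 of 18. The last list holds known NF-κB target genes and gave 7 of the 11 genes with a motif. A match is a description of letters, not a binding site. Shown are *Nfkb2* and *Rel*, subunit genes with the motif, and *Cxcl10*, the chemokine gene that differed most between the libraries below. Capitals mark the motif, the sequences run 5′ to 3′ on the gene's strand, and the last base is the one before the start.
Nfkb2, chr19:46304487-46304736, plus strand: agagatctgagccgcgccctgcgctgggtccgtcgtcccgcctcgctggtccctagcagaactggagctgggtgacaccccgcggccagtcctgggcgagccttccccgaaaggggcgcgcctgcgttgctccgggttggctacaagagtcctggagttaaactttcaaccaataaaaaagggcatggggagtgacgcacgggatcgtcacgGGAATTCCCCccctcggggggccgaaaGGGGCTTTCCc
Rel, chr11:23770970-23771219, minus strand: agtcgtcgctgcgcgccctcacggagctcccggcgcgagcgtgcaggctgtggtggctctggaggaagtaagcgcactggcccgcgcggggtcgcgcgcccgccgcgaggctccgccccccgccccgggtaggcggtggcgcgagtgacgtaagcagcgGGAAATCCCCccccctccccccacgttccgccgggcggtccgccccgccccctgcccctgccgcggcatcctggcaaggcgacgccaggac
Cxcl10, chr5:92348890-92349139, minus strand: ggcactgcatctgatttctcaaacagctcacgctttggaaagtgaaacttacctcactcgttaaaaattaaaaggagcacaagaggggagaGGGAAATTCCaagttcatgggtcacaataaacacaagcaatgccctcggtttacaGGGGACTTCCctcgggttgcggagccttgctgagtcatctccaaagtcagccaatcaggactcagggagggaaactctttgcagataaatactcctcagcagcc
*Nfkb2* and *Cxcl10* each held 2 motifs and *Rel* held 1. Those of *Nfkb2* began 38 and 11 bases before the start, that of *Rel* 91 bases before it, and those of *Cxcl10* 159 and 104 bases before it.

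Dendritic cell marker lists took different directions. A list of 5 general dendritic genes summed to 517 and 346 CPM in marker-rich members, against 120 and 114 CPM in *Cd209a* barcodes. The lists of the single lineages were lower in marker-rich members, at 758 and 860.5 CPM against 1433 and 1505 CPM for the lineage of *Cd209a*, and at 143 and 125 CPM against 190.3 and 203 CPM for that of *Xcr1*. *Cd209a* is in the first of these lists and chose the *Cd209a* barcodes, so the choice sets part of that difference. It had 269 and 279 CPM in them and 1.49 and 1.25 CPM in marker-rich members. *Flt3*, the receptor for the growth factor that dendritic cells depend on, stood at 207 CPM (174 to 244) in marker-rich members labelled CD40 KO and 116 CPM (93.7 to 142) in WT. It stood at 38.5 and 32.9 CPM in marker-poor members, 27.9 and 29.7 CPM in *Cd209a* barcodes and 7.50 and 3.91 CPM in class II macrophages. *Zbtb46*, a transcription factor of conventional dendritic cells, stood at 163 and 119 CPM, 63.3 and 81.0 CPM, 33.6 and 30.1 CPM, and 7.83 and 5.71 CPM in the same populations. A UMI of *Zbtb46* was found in 1 of 21 and 5 of 66 neutrophil-like barcodes, against 59 of 93 members labelled CD40 KO and 48 of 70 WT members. Among transcription factors 3 of 12 measured passed 2-fold over *Cd209a* barcodes, *Zbtb46*, *Irf8* and *Stat4*, and 0 were lower, beside 3.84% and 0.669% of all genes. *Irf8*, which directs one dendritic lineage, stood at 312 and 320 CPM in marker-rich members and 90.4 and 150 CPM in *Cd209a* barcodes. The cytokine receptor genes *Flt3*, *Il2ra* and *Il21r* were 3 of 11 measured in their list, beside the same 3.84%. *Il12b*, the p40 chain of interleukin 12, was low, at 57.9 and 11.2 CPM in marker-rich members from 39 and 9 UMIs.

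Antigen presentation genes took both directions. The class II genes chose the members; *H2-Aa* had 3 to 199 UMIs with a median of 82 per member in the library labelled CD40 KO, and 5 to 209 with a median of 92 in WT. Of 8 measured genes of class II and peptide loading, *H2-DMb2* was 2-fold higher and *H2-DMb1* 2-fold lower in marker-rich members than in *Cd209a* barcodes. *H2-DMb1*, a chain of the complex that loads peptides onto class II molecules, had 86.2 and 114 CPM in marker-rich members, 275 and 294 CPM in marker-poor members and 302 and 294 CPM in *Cd209a* barcodes. *H2-DMb2*, the other such chain gene, had 103 and 97.4 CPM, 88.6 and 83.7 CPM, and 45.2 and 38.9 CPM. The near-identical sequences of the pair mean that reads could be split between them. Genes of class I presentation had medians of 0.57 and 0.47 (log2) over *Cd209a* barcodes, beside −0.10 and −0.07 for all genes, with *Psme2*, an activator subunit of the proteasome, and *Tap2*, a peptide transporter, 2 of 12 past 2-fold. Among 7 measured survival genes *Bcl2a1b* and *Bcl2a1d*, near-identical BCL2 family copies between which reads could be split, passed 2-fold.

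Of 13 measured uptake genes 3 were at least 2-fold lower in marker-rich members than in *Cd209a* barcodes, 1 was higher and 9 were neither, beside 0.669% and 3.84% of all genes. The 3 lower ones were *Cd209a*, *Clec10a* and *Mgl2*, lectins of tissue dendritic cells, and *Cd209a* had chosen the *Cd209a* barcodes. Without *Cd209a* 2 of 12 were lower and 1 higher. *Clec10a* had 19.3 and 13.7 CPM in marker-rich members, 68.5 and 176 CPM in marker-poor members and 74.0 and 116 CPM in *Cd209a* barcodes. *Mgl2* had 4.46 and 14.99 CPM, 124 and 76.8 CPM, and 136.5 and 52.5 CPM. The higher one was *Ly75*, the endocytic receptor DEC-205, which had 302 CPM (262 to 346) in marker-rich members labelled CD40 KO and 157 CPM (131 to 187) in WT. It had 10.4 and 28.8 CPM in marker-poor members and 6.73 and 2.41 CPM in *Cd209a* barcodes.

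Macrophage transcripts were present in most members, in differing amounts. At least 10 UMIs of *C1qa*, *C1qb* and *C1qc*, complement genes of macrophages, were held by 45 of 93 members labelled CD40 KO (48.4%, 37.9 to 59.0) and 40 of 70 WT members (57.1%, 44.7 to 68.9). Such members were deeper: among marker-rich members the median was 44514 UMIs in 9 barcodes with at least 10 C1q UMIs and 14755 UMIs in 15 with fewer in the library labelled CD40 KO, and 26080.5 UMIs in 18 and 10369 UMIs in 19 in WT. Scrublet, a doublet caller, marked 0 barcodes in both libraries by its own threshold and so had not worked here. At a fixed rate of 0.8% per 1000 barcodes it marked 4 and 8 members, of which 4 and 7 had at least 10 C1q UMIs. None was removed. *C1qa* was in 79.6% and 65.7% of members and in 38.1% and 33.3% of neutrophil-like barcodes, and after thinning in 48.4% and 48.6% against 9.52% and 16.7%. *Spp1*, an osteopontin gene of macrophages, was in 82.8% and 78.6% of thinned members and in 90.5% and 93.9% of thinned neutrophil-like barcodes, a share of the members at or below background. The part of doublets and of free RNA in these values was not tested.

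**Figure D4:**
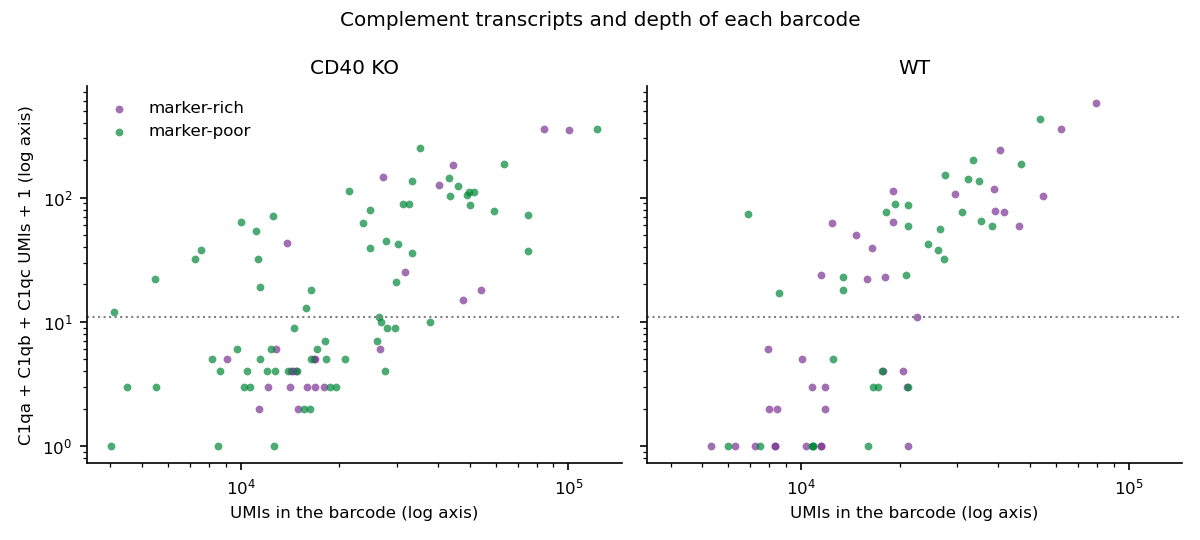
UMIs of *C1qa*, *C1qb* and *C1qc* plus 1 (vertical, log axis) against all UMIs (horizontal, log axis) for each member, with the library labelled CD40 KO on the left and WT on the right; purple points are marker-rich and green points marker-poor. The dotted line marks 10 C1q UMIs, reached by 45 and 40 members, and the deepest barcodes lie above it.

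Marker lists of other cell types covered a wide range in the members. The 5 lipid-associated macrophage genes summed to 4794 CPM in the library labelled CD40 KO and 11843 CPM in WT, and the 6 monocyte genes to 1158 and 634 CPM. In the barcodes that passed the limits but were not members, these lists summed to 7616 and 17415 CPM, and to 1647 and 974 CPM. Both lists were thus lower in members, with the same direction between the libraries. Of the T cell markers only 1 of 5 had any UMI in the members, with *Cd3d*, *Cd3e*, *Cd3g* and *Lef1* at 0, and the list summed to 1.66 and 1.31 CPM. At least 3 UMIs of B, T or NK markers were held by 2 members of each library. The macrophage list, 9 of 9 genes detected, summed to 4680 and 8981 CPM, and ranged per member between 248 and 17343 CPM under the CD40 KO label and between 0 and 24808 CPM in WT. In the barcodes outside the members the macrophage list summed to 9104 and 12504 CPM. Neutrophil markers summed to 593 and 792 CPM over all members, and the highest single member, a WT one, had 16031 CPM of them. Outside the members these markers summed to 668 and 882 CPM. A single member labelled CD40 KO held 2396 UMIs of fibroblast markers, while the next highest held 5. It was a marker-rich member with all 7 markers and 54114 UMIs. It was kept, so it is part of the marker-rich levels under that label, where the 5 fibroblast genes summed to 3576 CPM.

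The members of the libraries were then compared gene by gene. Of 3424 measured genes 284 passed 1.5-fold upward (8.29%) and 211 downward (6.16%) in the library labelled CD40 KO, and the median gene lay at 0.01 (log2). Within marker-rich members the shares were 9.71% and 9.8%, and within marker-poor members 10.7% and 8.48%. In marker-rich members low in C1q they were 19.4% and 17.3%, from fewer UMIs. *Cd209a* barcodes had 9.61% and 6.55% and class II macrophages 5.43% and 3.53%. The first 4 genes by size were *Col1a1*, *Col1a2*, *Sparc* and *Col3a1*, of which the single barcode with fibroblast transcripts held 95.5% to 98.4% of the UMIs. Next came *Cxcl10* (ENSMUSG00000034855, GRCm38 chromosome 5, 92346638 to 92348889, minus strand), a chemokine gene induced by interferons. It had 0 to 118 UMIs per member with a median of 1 in the library labelled CD40 KO, and 0 to 7 with a median of 0 in WT. Its level was 245 CPM (226 to 266) and 30.7 CPM (22.6 to 40.9), a log2 ratio of 3.00 (2.57 to 3.46). The highest barcode held 19.97% of its UMIs in the library labelled CD40 KO. In marker-poor members *Cxcl10* had 305.5 and 39.8 CPM and in marker-rich members 89.2 and 22.5 CPM. *Cd209a* barcodes had 104.8 and 88.2 CPM, class II macrophages 143 and 123 CPM and neutrophil-like barcodes 166 and 38.2 CPM.

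Metallothioneins and *Crip1* were higher in members of the library labelled CD40 KO and also in the other cells. *Mt1*, a metal binding protein gene, had 658 and 228 CPM in members, 1267 and 267 CPM in class II macrophages and 681 and 307 CPM in neutrophil-like barcodes. *Crip1*, which encodes a small LIM protein, had 1625 and 596 CPM, 1673 and 377 CPM, and 879 and 243 CPM. *Ifi27l2a*, an interferon induced gene, had 1486 and 452 CPM, 2039.5 and 519.6 CPM, and 1873 and 317 CPM. The ratios of these genes were alike in marker-rich members, at 1.54 for *Mt1*, 1.55 for *Crip1* and 1.75 for *Ifi27l2a*, and in marker-poor members, at 1.34, 1.54 and 1.68. *Ptgs2*, the inducible prostaglandin synthase, had 279.9 and 79.8 CPM in members. It had 277 and 90.6 CPM in *Cd209a* barcodes and 298 and 121 CPM in class II macrophages, the same direction. *Areg*, a growth factor gene of the EGF family, had 107 and 23.5 CPM in members. It had 89.4 and 40.9 CPM in *Cd209a* barcodes and 107 and 31.7 CPM in class II macrophages. The part of free RNA in these values was not tested.

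At the low end stood 12 genes, led by *Gpnmb*. *Gpnmb*, a lysosomal glycoprotein gene, had 0 to 39 UMIs per member with a median of 0 in the library labelled CD40 KO, and 0 to 67 with a median of 1.5 in WT. In sum that was 80.9 CPM (69.9 to 93.1) and 320 CPM (293 to 350), a log2 ratio of −1.99 (−2.23 to −1.74). *Fabp5*, a fatty acid binding protein gene, had 1817 and 5236 CPM (−1.53) and *Apoe*, a lipid carrier gene, 2206 and 5261 CPM (−1.25). Neutrophil-like barcodes, which should lack these genes, had the same direction. They had 78.2 and 479 CPM of *Gpnmb*, 672 and 4731 CPM of *Fabp5* and 2038 and 4940 CPM of *Apoe*. How far free RNA entered these values was not tested. In marker-rich members the ratios of *Fabp5* (−0.52) and *Apoe* (−0.47) were smaller than in marker-poor members (−2.26 and −1.77). *Syngr1*, *Grik3*, *Anp32a*, *Arf5*, *Spp1*, *Cd63*, *Creg1*, *Lpl* and *Ctsl* made up the rest, with ratios between −1.97 and −1.13. *Lpl*, a lipase gene, turned from −1.28 to 0.33 when members with at least 10 C1q UMIs were left out.

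**Figure D5:**
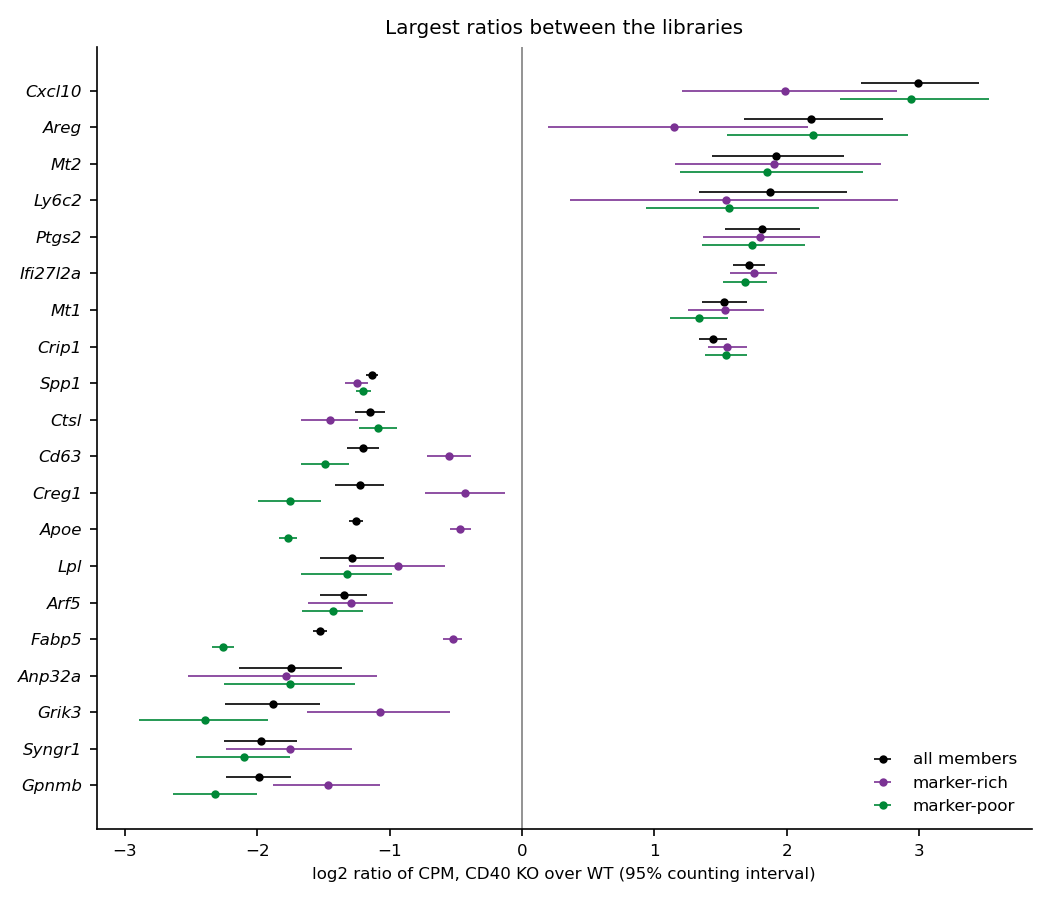
Log2 ratio of CPM, library labelled CD40 KO over WT (horizontal axis), with 95% counting intervals for the genes at both ends of the order, without *Col1a1*, *Col1a2*, *Col3a1* and *Sparc*. Black points are all members, purple marker-rich and green marker-poor members. *Cxcl10* is highest at 3.00 and *Gpnmb* lowest at −1.99 over all members.

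The markers that drew the marker-rich class differed between the libraries over all members; within the class they are fixed in part by the choice, so those values are a description. *Fscn1* had 98.7 CPM (86.6 to 112) over all members labelled CD40 KO and 226 CPM (202 to 251) over all WT members (−1.19), but 352 CPM (309 to 399.9) and 431 CPM (387 to 479) in marker-rich members. *Cacnb3*, a calcium channel subunit gene, had 37.7 and 69.3 CPM over all members and 134 and 130 CPM in marker-rich ones. The migration list had 2 members at least 1.3-fold higher and 9 lower of 17 over all members (all genes 16.9% and 14.8%), with a median of −0.39. In marker-rich members it had 2 higher and 2 lower of 16 (all genes 18.5% and 19.3%), with a median of −0.11. *Ccr7* itself, the choosing gene, had 577 and 660.3 CPM over all members, and 1302 and 913 CPM in marker-rich members, a turn of direction.

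The marker-rich members of the libraries were not alike. At least 6 of the 7 markers were present in 23 of 24 labelled CD40 KO and 26 of 37 in WT. Their median *Ccr7* counts were 36 and 18 UMIs. The part of this difference in the ratios below was not tested. Within marker-rich members some ligand and receptor genes stood higher in the library labelled CD40 KO. *Flt3* had a log2 ratio of 0.83 (0.44 to 1.23), *Ly75* 0.94 (0.61 to 1.27), and *Il2ra*, the interleukin 2 receptor α chain, 1.34 (0.83 to 1.87). *Ccl22* had 0.74 (0.51 to 0.96), but 3 barcodes labelled CD40 KO held 115, 75 and 72 of its 395 UMIs, and 3 WT barcodes 77, 65 and 46 of 282. *Tnfsf4*, which encodes the T cell costimulator OX40 ligand, had 92.1 and 33.7 CPM (1.45, 0.78 to 2.16). *Tnf* was lower, at 99.6 and 221 CPM (−1.15, −1.58 to −0.74). At 1.3-fold, which 18.5% of all genes passed upward and 19.3% downward, the CD40 and NF-κB list had 6 higher and 1 lower of 19, with a median of 0.13 beside −0.01 for all genes. Costimulation had 2 higher and 2 lower of 8, checkpoint genes 2 and 1 of 8, and class I presentation 0 and 0 of 13.

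Early response genes, which handling and dissociation of tissue can induce, stood more often lower than higher under the CD40 KO label. Of 17 measured list members 1 was at least 1.3-fold higher and 13 lower in marker-rich members, with a median of −0.66, beside 18.5% and 19.3% of all genes. Over all members 2 were higher and 8 lower, with a median of −0.37, beside 16.9% and 14.8%. *Fos*, an AP-1 subunit gene, had 432 and 864 CPM in marker-rich members, 638 and 974 CPM in *Cd209a* barcodes and 740.4 and 1154 CPM in class II macrophages. *Nr4a1*, a nuclear receptor gene, went the other way in marker-rich members, at 215 and 109 CPM. The type I interferon list, read beside the same shares, had 4 higher and 0 lower of 7 over all members, with a median of 0.40, but 2 higher and 3 lower of 7 in marker-rich members, with a median of 0.22. *Rsad2*, an antiviral enzyme gene, had 121 and 54.3 CPM over all members and 47.5 and 62.4 CPM in marker-rich members, with a ratio of −0.39 (−1.08 to 0.28) whose interval spans 0. Without the members with at least 10 C1q UMIs the interferon median was −0.22.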

How the data were processed

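Single cells sorted as CD45+ CD11b+ CD64+ from mouse hearts on day 3 after infarction were sequenced with a droplet 3′ kit, per the labels' protocols. The authors deposited 1 matrix of UMI counts per library, not normalized, over 32285 genes. Per the file headers, Cell Ranger 7.0.1 wrote the matrices, and the submitters' processing notes also name STAR and mm10. Groups came from the labels, with 1 library each, so no test was made. From the counts, barcodes were kept at 3000 UMIs, 500 genes and 10% mitochondrial UMIs or better, UMIs were summed per population and library, and CPM were taken. Genes with a mean of at least 50 CPM over the populations compared were measured. A gene was called past 2-fold between populations in both libraries, and past 1.5-fold between libraries, with 1.3-fold for counts over lists. CPM have exact Poisson intervals, shares exact binomial (Clopper-Pearson) intervals, and ratios exact conditional intervals, all at 95% and for counting error only. A count of 0 was given the limit of 3 counts. Thinned shares come from 3000 UMIs drawn per barcode. The members and lists were chosen with earlier results of these data known. Genes were named as members of the lists, as the 15 highest and 10 lowest by the smaller of both libraries' ratios between populations, or as the 12 highest and 12 lowest by the bound of the ratio between libraries. Doublets were scored with Scrublet in scanpy 1.11.5 and kept. The calculations were tested on simulated data. Gene positions are from GENCODE (GRCm38) and promoters from RefSeq (GRCm38.p6). Python 3.11.15, numpy 2.4.6, scipy 1.17.1 and pandas 2.3.3 were used. Alternatives were other limits on *Ccr7*, class II, depth and mitochondrial UMIs, leaving out members with at least 10 C1q UMIs, thinning, equal weights, other scalings and folds, and classes of members.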

Additional observations from a re-analysis of the deposited data

Results flagged for a closer look

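Outside the members, 4 barcodes with the CD40 KO label and 6 WT barcodes had at least 3 *Ccr7* UMIs but fewer than 10 class II UMIs. They enter no comparison of the members. At least 3 UMIs of T cell markers were held by 0 and 2 of them and of B cell markers by 0 and 1, while at least 5 of the 7 mature markers were held by 1 and 1. Their median depths were 19764 and 5756.5 UMIs.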

How the results depend on the processing

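No paired analysis was possible because each group is 1 library. The classes by markers were chosen after seeing the data. The members' share was 2.22% in the library labelled CD40 KO and 1.28% in WT at a limit of 2 *Ccr7* UMIs, and 1.199% and 0.713% at 5. It was 2.14% in the library labelled CD40 KO at 5000 UMIs per barcode, with the WT share at that limit not given here. Without members with at least 10 C1q UMIs (without C1q, in short) it was 0.834% and 0.404%. It was 0.417% and 0.498% for marker-rich members, 0.261% and 0.256% for marker-rich members low in C1q, and 1.199% and 0.444% for marker-poor members. Genes higher and lower in the library labelled CD40 KO numbered 495 and 411 without C1q, 508 and 488 after thinning, 2586 and 5383 with no minimum level, and 88 and 33 at 2-fold. Marker-rich members had 330 higher and 333 lower, and those low in C1q 620 higher and 552 lower. Genes higher in members than in *Cd209a* barcodes numbered 23 and 57 at limits of 2 and 5 *Ccr7* UMIs, 164 without C1q, 114 with C1q left out of both populations, 63 after thinning, 64 at equal weights, 240 with no minimum and 6 at 4-fold. They numbered 132 for marker-rich, 323 for marker-rich low in C1q, and 6 for marker-poor members. The main sign of the log2 ratios between libraries was kept by 400 of 416 values of single genes and 147 of 168 list medians under the alternatives set in advance. Under the others, such as classes of members, it was kept by 154 of 183 and 51 of 70. Named here are only changes from a main value past 1.5-fold for genes or 1.3-fold for lists. The interferon median changed to −0.22 without C1q and −0.20 in marker-rich members low in C1q. *Cacnb3* changed to 0.042 in marker-rich members, 0.023 in those low in C1q and 0.018 at equal shares of both classes. *Ccl17* changed to 0.9995 without C1q, 1.58 in marker-rich members low in C1q and 1.10 in marker-poor members, and *Lpl* to 0.33 without C1q. The cause was not tested. Small numbers of barcodes limit every value, and 1 barcode can carry a gene.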
